A study of Homo sapiens with 4 samples.

Results

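The genes described here build and fill the lysosome and run autophagy: the subunits of the vacuolar proton pump, the cathepsins, lysosomal membrane proteins and the core autophagy machinery. They were chosen by a rule on symbols, with earlier results of these data known. It took every gene whose name begins with ATP6V, GABARAP, MAP1LC3 or ATG and a digit, and every CTS gene with a single closing letter. It also took LAMP1, LAMP2, LAMP3, SQSTM1, ULK1, WIPI1, BECN1, TFEB and MCOLN1. The rule found 67 genes of 18840. Of these, 60 reached a mean of at least 1 CPM (reads of a gene normalised to library depth with TMM factors) over the 4 libraries and were compared. The symbols ATG5, ATG12 and ATP6V0E2 had no line and are not analysed here.

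Lysosomes are acidified by the V-ATPase, in which a cytosolic V1 part splits ATP and turns a membrane-bound V0 ring that carries protons inward. Low pH matures and activates the cathepsins, proteases that digest cargo brought by endocytosis or by autophagosomes. Autophagosomes start at the ULK1 kinase and the BECN1 lipid kinase complexes, grow with lipid from ATG2 and ATG9 proteins, are coated by lipid-bound ATG8 proteins (the LC3 and GABARAP families) and take up cargo through receptors such as SQSTM1. TFEB and related factors switch on many of these genes together through E-box elements when the kinase mTORC1 is inactive.

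Poly(A) RNA had been sequenced from MCF10A, an immortalised, non-tumorigenic human mammary epithelial line, stably carrying pBabe retroviral constructs: pBabe-miR-105, pBabe-MYC, pBabe-GFP or the pBabe vector. All were cultured in DMEM/F12 containing horse serum (5%), insulin (10 ug/ml), EGF (20 ng/ml), cholera toxin (0.1 ug/ml) and hydrocortisone (0.5 ug/ml), so the ample insulin and growth factor were common to every group. There was 1 library per construct and no replicate, so no fold below has a replicate check or a p-value, and the calls by edgeR and DESeq2 counted further on compare libraries, not conditions. The labels do not say whether a line was 1 clone or a pool. The miR-105 construct makes a microRNA that has no line in the table and is not analysed here. MYC mRNA stood at 463 CPM in the library labelled miR-105, 232 CPM in the library labelled MYC, 198 CPM in GFP and 207 CPM in vector, so the label MYC is not matched by the highest MYC level and both lines are called by their labels. Reads numbered from 6859698 (miR-105) to 14025115 (GFP), and 1 read was worth between 0.0722 and 0.157 CPM. Markers of mammary epithelium summed to 12278 CPM in the library labelled miR-105, 8093 CPM in that labelled MYC, 10606 CPM in GFP and 12316 CPM in vector, and EPCAM and KRT18 were present in every library, as the labelled cell type has them.

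Members are shown first by the sequences that bear on the constructs. The miR-105-5p strand is given with its seed, bases 2 to 8, in capitals, followed by the member 3′ UTR sites of at most 30 bases that hold the perfect 7-base match to it (GCATTTG, in capitals) in members at least 2-fold from both controls. Sites come from the longest 3′ UTR of each gene in GENCODE 29 (GRCh38), and miR-105-5p from RefSeq, where the MIR105-1 copy lies at chrX:152392265-152392287 on the minus strand.
hsa-miR-105-5p: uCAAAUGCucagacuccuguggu
CTSO: tatgtgatatagatGCATTTGtaatactct
CTSS: attttaagctgaagGCATTTGaggaaattg
CTSV: ttaacaaatctcagGCATTTGacagtagct
CTSO and CTSS were at least 2-fold lower in the library labelled miR-105, and CTSV was at least 2-fold higher there. Of the 15 members lower there, 2 held the site, against 5 of the other 45 compared members. Over all 67 members, 7 had it (10.4%), against 14.97% of the 17797 genes with a 3′ UTR and 13.3% of the 1971 genes lower in that library. The share among members was thus below that among all genes. No member held the match to the seed of the other strand, miR-105-3p (ACATCCG). A match is a description of letters, and UTR lengths differ between genes (median 959 bases in members, 1108 over all genes).

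Promoters are shown for the E-box that TFEB and its relatives bind and that overlaps the site of MYC with MAX. RefSeq promoters (GRCh38.p14, 250 bases before to 50 after the start) matched 51 of the 67 members. TCACGTG, read on either strand, lay in 9 of these 51 (17.6%) and in 5.79% of 14019 genes. The shorter CACGTG, which it contains, lay in the same 9 and in 10.8% of genes. One window per gene is printed on the strand of the gene, with a match in capitals. Some genes held several matches, and further ones within a window, as in LAMP1, are left in lower case.
ATG14 (chr14:55411831-55411868, minus strand): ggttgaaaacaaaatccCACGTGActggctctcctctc
CTSF (chr11:66568706-66568746, minus strand): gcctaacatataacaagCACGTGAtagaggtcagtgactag
CTSD (chr11:1763951-1763991, minus strand): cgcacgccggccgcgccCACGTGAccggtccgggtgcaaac
ATP6V0D1 (chr16:67481194-67481234, minus strand): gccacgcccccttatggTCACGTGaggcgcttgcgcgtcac
MCOLN1 (chr19:7522565-7522605, plus strand): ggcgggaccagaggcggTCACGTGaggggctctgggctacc
LAMP1 (chr13:113297045-113297085, plus strand): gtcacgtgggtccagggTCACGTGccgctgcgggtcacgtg
The other 3 were ATG3, ATP6V0B and ATP6V1G1. Of the 9, ATG14 and CTSF were at least 2-fold lower in the library labelled miR-105 and the other 7 were not called there. None of the 9 was called in the library labelled MYC. The forkhead motif TGTTTAC lay in 4 members (7.84%, against 3.84% of genes). Of the 3 compared, ATP6V1B1 and CTSF were lower in the library labelled miR-105, ATP6V1B1 was also lower in that labelled MYC, and CTSL was called in neither. The antioxidant element TGACNNNGC lay in 15 (29.4%, against 18.0%). Of the 14 compared, 2 were higher (CTSC and CTSV) and 1 lower (ATG9B) in the library labelled miR-105, while 11 were not called there. In the library labelled MYC, 1 was higher (CTSC) and 2 were lower (CTSV and ATG9B). For all these motif counts, the shares of all genes were 14.7% higher and 16.6% lower under the miR-105 label, and 9.03% and 10.4% under the MYC label. A link between motif and call was not tested.

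A member was called higher or lower only where it was at least 2-fold from the GFP library and from the vector library, on a log2(CPM + 0.5) scale that understates the change of low genes. Folds given for single genes are plain ratios of CPM. Each pair gives the fold against GFP first and against vector second, with 95% counting intervals that do not cover the spread between cultures. PCR copies were not told apart from separate molecules. In the library labelled miR-105, 5 of 60 members were higher (8.33%, where 14.7% of all 12484 genes were) and 15 were lower (25%, where 16.6% of all genes were). Their median log2 fold was −0.39, against 0.0052 for all genes. In the library labelled MYC, 2 were higher (3.33%, against 9.03%) and 5 were lower (8.33%, against 10.4%), with a median of −0.40 against 0.04. Between GFP and vector, 0 members were higher (3.06% of all genes were) and 0 were lower (1.03%). The share of members lower in the library labelled miR-105 was thus above the background share, and that of members lower in the library labelled MYC was near it. Because the members were chosen with earlier results of these data known, these shares are descriptions and no test. CTSC was higher in both lines, GABARAPL1, ATP6V1B1 and ATG9B were lower in both, and CTSV was higher in one (miR-105) and lower in the other. Both lines share their control libraries, and the share of all genes called in both lines was not computed. These overlaps are therefore counts only and cannot be set against a background. With GFP and vector treated as 1 control group and an adjusted p under 0.05, which leaves 1 residual degree of freedom and compares libraries, not conditions, edgeR's quasi-likelihood test called 6 members higher (19.5% of all genes) and 16 lower (19.8%) under the miR-105 label, and 3 higher (10.9%) and 6 lower (11.8%) under the MYC label. DESeq2 called 3 higher (12.9%) and 15 lower (14%) under the miR-105 label, and 3 higher (5.63%) and 4 lower (8.43%) under the MYC label.

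**Figure D1:**
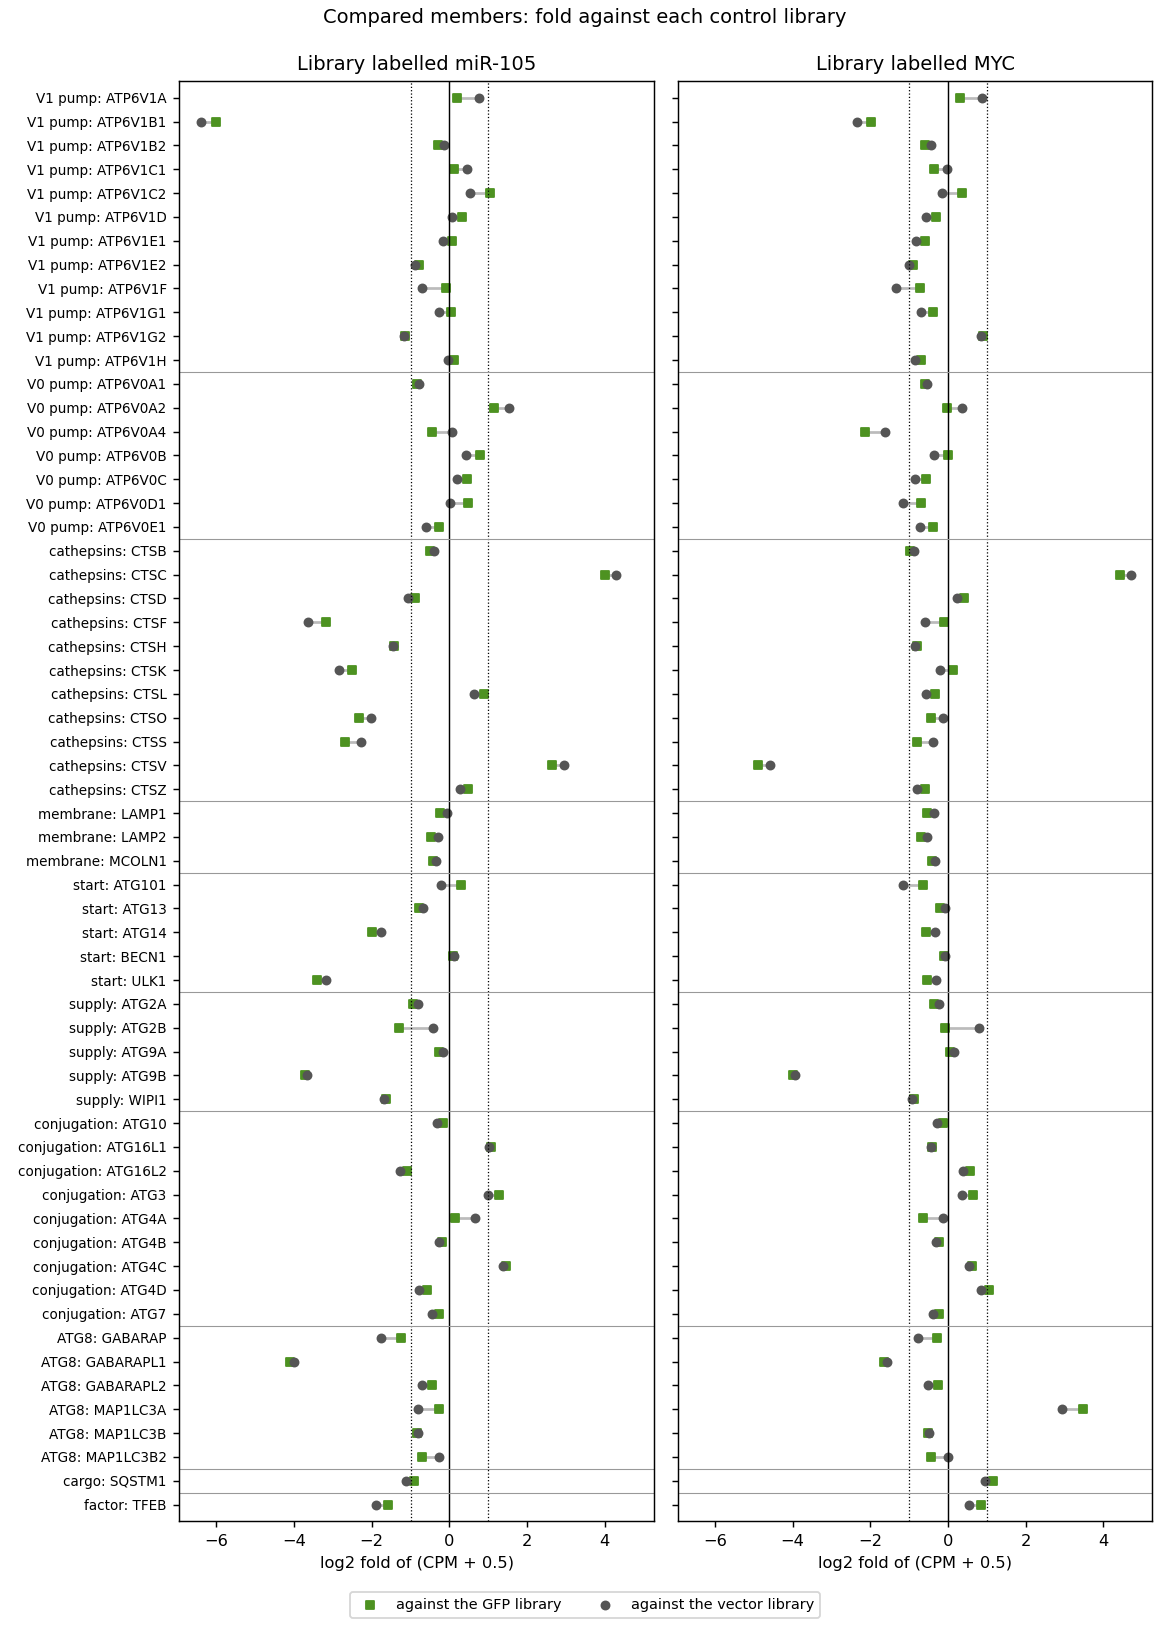
Log2 fold of (CPM + 0.5) of each of the 60 compared members in the library labelled miR-105 (left) and in that labelled MYC (right), ordered by role; squares are against the GFP library and circles against the vector library, and dotted lines mark 2-fold. Most pump subunits lie near 0 on the left and below 0 on the right, and ATP6V1B1, CTSC, CTSV, ULK1, GABARAPL1, ATG9B and MAP1LC3A lie far from the rest.

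Of the 12 compared genes of the pump's V1 part, 10 were not called in the library labelled miR-105 and 11 were not called in that labelled MYC, and ATP6V1B1 was far lower in both. ATP6V1B1 (chr2:70935900-70965431, GRCh38), the B subunit isoform known from kidney and inner ear, stood at 1.57 CPM in the library labelled miR-105, 33.7 in that labelled MYC, 134 in GFP and 174 in vector. It was 85.3-fold (46.3 to 178) and 111-fold (60.1 to 231) below GFP and vector in the library labelled miR-105, and 3.98-fold (3.55 to 4.47) and 5.16-fold (4.60 to 5.81) below GFP and vector in that labelled MYC. Its broadly expressed paralog ATP6V1B2 stood at 118 CPM in the library labelled miR-105, 96.5 in that labelled MYC, 145 in GFP and 129.9 in vector, so the pair did not move together. Per kilobase of exon, ATP6V1B1 made up 1.93% of the B subunit mRNA in the library labelled miR-105, 34.1% in that labelled MYC, 57.8% in GFP and 66.5% in vector. The sum of both B genes per kilobase was therefore carried almost wholly by ATP6V1B2 in the library labelled miR-105.

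Of the other V1 genes, ATP6V1A, the catalytic subunit, stood at 109 CPM in the library labelled miR-105, 118 in that labelled MYC, 94.8 in GFP and 64.3 in vector, and GFP and vector themselves differed 1.47-fold in it. ATP6V1H, which regulates the joining of V1 and V0, stood at 124 CPM in the library labelled miR-105, 70.3 in that labelled MYC, 114 in GFP and 128 in vector. ATP6V1H was within 1.09-fold of both controls under the miR-105 label, and 1.62-fold and 1.82-fold below GFP and vector under the MYC label. ATP6V1F, part of the rotor stalk, stood at 95.8 CPM in the library labelled miR-105, 61.5 in that labelled MYC, 102 in GFP and 156 in vector, and only its distance from vector in the library labelled MYC passed 2-fold (2.53-fold lower). ATP6V1C2, an isoform of the C subunit, stood at 106 CPM in the library labelled miR-105, 66.2 in that labelled MYC, 51.6 in GFP and 73.7 in vector, and in the library labelled miR-105 it lay 2.06-fold and 1.44-fold above GFP and vector, past 2-fold against GFP only. ATP6V1C2 shares 1033 exon bases with PDIA6 on the opposite strand. PDIA6 had 2171 reads under the miR-105 label, 1933 under MYC, 2283 in GFP and 1607 in vector. With no strand setting given, reads of this overlap cannot be told apart. ATP6V1G2, a stalk isoform known from neurons, rested on 1 read in the library labelled miR-105, 23 reads in that labelled MYC, 13 in GFP and 9 in vector. Its ratio of 5.99-fold (0.899 to 254) lower than GFP has an interval that includes 1, it shares exon bases with the read-through ATP6V1G2-DDX39B, and its call was lost with a pseudocount of 1 CPM (log2 fold −0.76). Over the 12 compared V1 genes, 0 were higher and 2 lower in the library labelled miR-105 (median log2 fold −0.08), and 0 were higher and 1 lower in that labelled MYC (median −0.52). Among all genes, 14.7% were higher and 16.6% lower under the miR-105 label, and 9.03% and 10.4% under the MYC label.

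In the membrane-bound V0 part the a-subunit isoforms moved apart from one another, while the ring and its collar were called in neither line. ATP6V0A2 (chr12:123712353-123761755), an isoform known from the Golgi and endosomes, stood at 51.3 CPM in the library labelled miR-105, 22.5 in that labelled MYC, 22.7 in GFP and 17.5 in vector. It was 2.26-fold (1.93 to 2.65) and 2.93-fold (2.42 to 3.56) above GFP and vector in the library labelled miR-105, and 1.01-fold lower than GFP and 1.28-fold higher than vector in that labelled MYC. ATP6V0A1, the isoform common in many cells, stood at 41.9 CPM in the library labelled miR-105, 49.9 in that labelled MYC, 75.1 in GFP and 72.6 in vector, lower in both lines by less than 2-fold. ATP6V0A4, a kidney isoform, had 11 reads in the library labelled miR-105, 2 in that labelled MYC, 35 in GFP and 15 in vector. Its ratio in the library labelled MYC was 13.3-fold (3.43 to 114) and 8.55-fold (1.99 to 77.1) below GFP and vector, on those 2 reads. TCIRG1, which encodes the a3 isoform and falls outside the name rule, stood at 38.1 CPM in the library labelled miR-105, 27.0 in that labelled MYC, 76.8 in GFP and 71.0 in vector, 2.84-fold (2.49 to 3.25) and 2.63-fold (2.28 to 3.03) below GFP and vector in the library labelled MYC. Per kilobase of exon, ATP6V0A2 made up 23.2% of the a-subunit mRNA in the library labelled miR-105, 12.8% in that labelled MYC, 6.55% in GFP and 5.46% in vector.

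**Figure D2:**
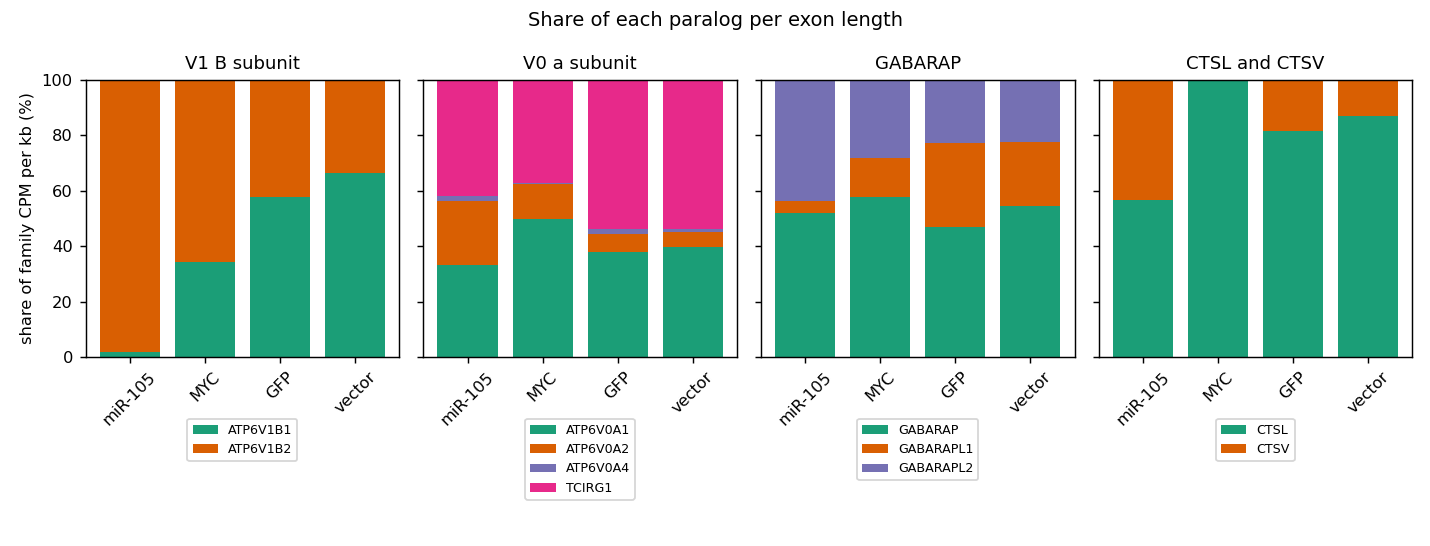
Share of each paralog in the summed CPM per kilobase of exon (%) of 4 families, in the libraries labelled miR-105, MYC, GFP and vector; bars stack to 100. ATP6V1B1 shrinks to 1.93% of the B subunit and GABARAPL1 to 4.38% of the GABARAP family in the library labelled miR-105, and CTSV shrinks to 0.469% of the CTSL and CTSV pair in that labelled MYC.

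ATP6V0C, which forms the proton-carrying ring, stood at 182 CPM in the library labelled miR-105, 88.1 in that labelled MYC, 132 in GFP and 159 in vector. ATP6V0D1, the collar that joins the ring to the stalk, stood at 113 CPM in the library labelled miR-105, 49.96 in that labelled MYC, 81.5 in GFP and 112 in vector, and the library labelled MYC lay 1.63-fold and 2.24-fold below GFP and vector. ATP6V0E1, a small V0 subunit, stood at 184 CPM in the library labelled miR-105, 169.5 in that labelled MYC, 223 in GFP and 279 in vector. ATP6V0B, a further ring protein, stood at 93.5 CPM in the library labelled miR-105, 54.8 in that labelled MYC, 54.3 in GFP and 69.8 in vector. For these 4 genes the library labelled MYC was the lowest, or level with GFP in ATP6V0B. Summed over all 21 pump genes, the level was 1567 CPM in the library labelled miR-105, 1121 CPM in that labelled MYC, 1551 CPM in GFP and 1779 CPM in vector. The library labelled miR-105 thus lay between its controls and the library labelled MYC below both. Of the 19 compared pump genes, 15 were lower than the control mean in the library labelled MYC at any size, with a median log2 fold of −0.56, and 10 in that labelled miR-105, with a median of −0.05. Over all 12484 genes, 5986 were lower at any size in the library labelled MYC and 6198 in that labelled miR-105. The same 19 had a median of −0.22 in GFP against vector.

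Cathepsins split in both directions. Of 11 compared, 2 were higher and 5 lower in the library labelled miR-105, and 1 was higher and 1 lower in that labelled MYC. All genes were 14.7% higher and 16.6% lower under the miR-105 label, and 9.03% and 10.4% under the MYC label. The MYC counts were thus near the share of all genes. CTSC (chr11:88293592-88337736), the dipeptidyl peptidase that activates granule serine proteases, stood at 70.3 CPM in the library labelled miR-105, 94.6 in that labelled MYC, 3.90 in GFP and 3.14 in vector. It was 18.0-fold (13.6 to 24.4) and 22.4-fold (15.4 to 33.9) above GFP and vector in the library labelled miR-105, and 24.3-fold (18.4 to 32.5) and 30.2-fold (20.9 to 45.3) above GFP and vector in that labelled MYC. Both lines therefore stood far above both controls in this 1 protease.

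CTSV (chr9:97029677-97039643), a close relative of CTSL known from thymus, testis and skin, stood at 179 CPM in the library labelled miR-105, 0.474 in that labelled MYC, 28.3 in GFP and 22.8 in vector, the MYC value resting on 5 reads. It was 6.31-fold (5.62 to 7.09) and 7.83-fold (6.76 to 9.11) above GFP and vector in the library labelled miR-105, and 59.7-fold (25.4 to 185) and 48.1-fold (20.3 to 149.7) below GFP and vector in that labelled MYC. CTSL itself, a broadly expressed cysteine protease, stood at 122 CPM in the library labelled miR-105, 52.1 in that labelled MYC, 65.4 in GFP and 77.9 in vector, and no fold against a control passed 2. Per kilobase of exon, CTSV held 43.2% of the summed pair in the library labelled miR-105, 0.469% in that labelled MYC, 18.3% in GFP and 13.2% in vector. The paralogs resemble each other in sequence, and how reads that fit both were assigned is not given in the sources used here.

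CTSF (chr11:66563464-66568606), a cysteine protease, had the lowest ratio to controls of the cathepsins lower in the library labelled miR-105. It stood at 10.4 CPM in the library labelled miR-105, 90.7 in that labelled MYC, 97.8 in GFP and 136 in vector, which is 9.45-fold (7.38 to 12.3) and 13.1-fold (10.2 to 17.1) below GFP and vector in the library labelled miR-105. CTSK, the collagen-cutting protease of bone, stood at 2.82 CPM in the library labelled miR-105, 20.1 in that labelled MYC, 18.3 in GFP and 23.1 in vector and was 6.50-fold (4.03 to 11.1) and 8.19-fold (5.06 to 14.1) below GFP and vector there. CTSS, known for trimming the invariant chain in antigen-presenting cells, stood at 2.04 CPM in the library labelled miR-105, 8.91 in that labelled MYC, 15.8 in GFP and 11.8 in vector. CTSO stood at 3.61 CPM in the library labelled miR-105, 14.7 in that labelled MYC, 20.0 in GFP and 16.1 in vector, and CTSH, an aminopeptidase, at 17.7 CPM in the library labelled miR-105, 27.5 in that labelled MYC, 48.3 in GFP and 49.7 in vector. For these 3, the folds below the controls in the library labelled miR-105 ran from 2.72 (CTSH) to 7.76 (CTSS). In the library labelled MYC the same 5 lay within 1.81-fold of both controls.

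CTSB, CTSZ and CTSD varied less. CTSB, a cysteine protease, stood at 536 CPM in the library labelled miR-105, 386 in that labelled MYC, 754 in GFP and 712 in vector, and CTSZ, a carboxypeptidase, at 202 CPM in the library labelled miR-105, 94.6 in that labelled MYC, 143 in GFP and 166 in vector. CTSD (chr11:1752755-1763927), the main aspartic protease of lysosomes, stood at 317 CPM in the library labelled miR-105, 784 in that labelled MYC, 586 in GFP and 664 in vector. In the library labelled miR-105 CTSD was 1.85-fold (1.76 to 1.95) and 2.10-fold (1.99 to 2.21) below GFP and vector, which passed 2-fold against vector only. Macrophage and other blood cell markers, beside the immune cathepsins, summed to 45.3 CPM in the library labelled miR-105, 28.5 CPM in that labelled MYC, 101.1 CPM in GFP and 98.9 CPM in vector. CSF1R, a growth factor receptor of macrophages, stood at 20.5 CPM in the library labelled miR-105, 9.86 in that labelled MYC, 75.1 in GFP and 66.3 in vector, while PTPRC, the pan-leukocyte marker, had 1 read in all, in GFP. Only 4 of the 10 markers were compared, with 0 higher and 2 lower (CSF1R and CD14) in the library labelled miR-105 (all genes: 14.7% and 16.6%). Their part in the cathepsin values was not tested, and in bulk RNA fewer cells of a type and less RNA per cell cannot be told apart.

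**Figure D3:**
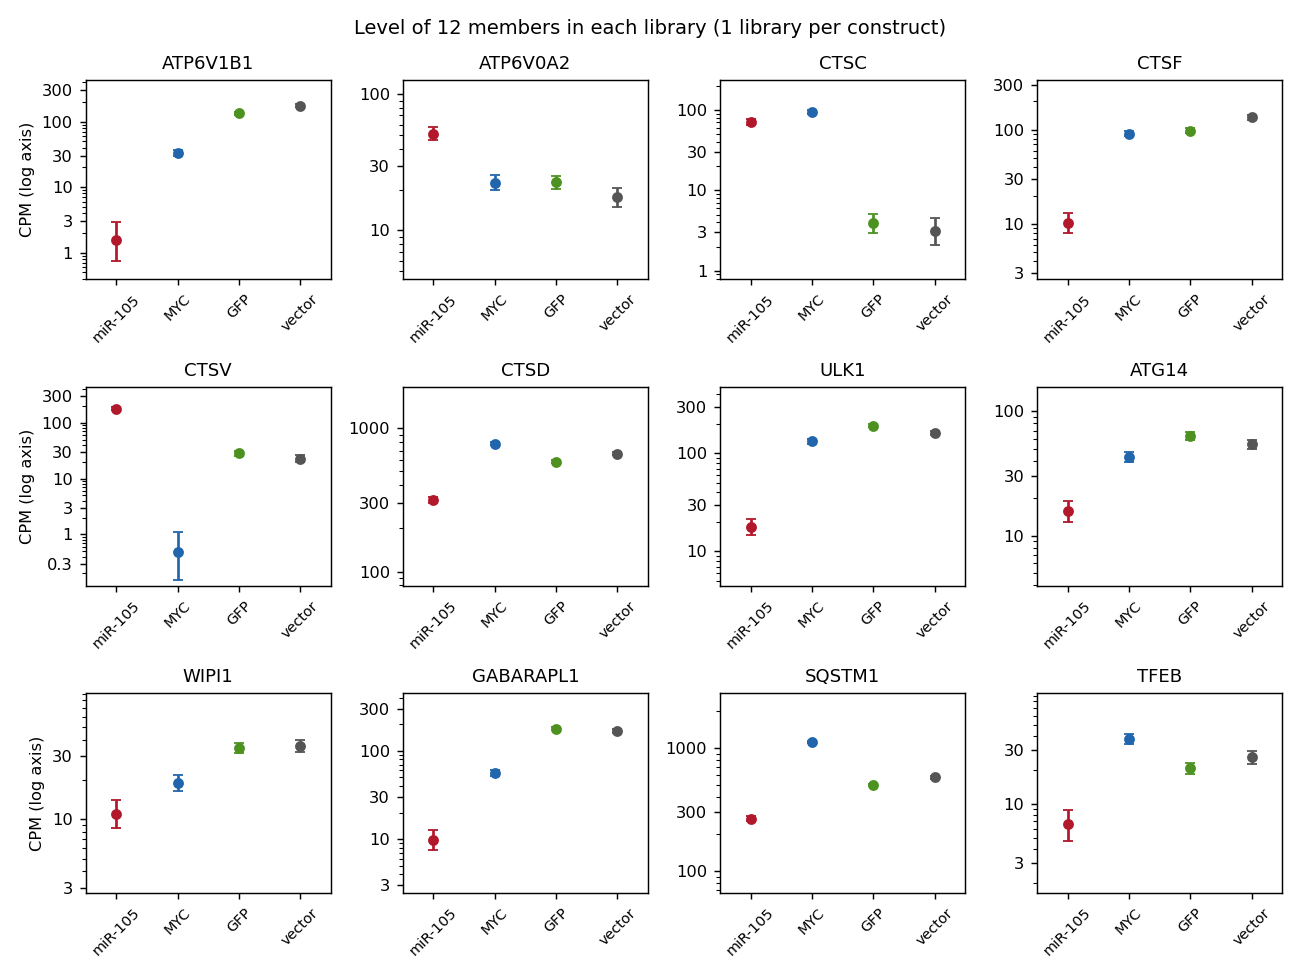
CPM on a log axis of 12 members in the libraries labelled miR-105, MYC, GFP and vector; points are the single libraries and bars are exact Poisson 95% intervals, which cover counting error only. GFP and vector differ by at most 1.39-fold in any panel, and the library labelled miR-105 is the lowest in ATP6V1B1, CTSF, CTSD, ULK1, ATG14, WIPI1, GABARAPL1, SQSTM1 and TFEB.

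LAMP1, LAMP2 and MCOLN1, proteins of the lysosomal membrane, stayed within 2-fold of both controls in both lines. LAMP1, a glycosylated coat protein, stood at 249 CPM in the library labelled miR-105, 203 in that labelled MYC, 296 in GFP and 259.9 in vector. LAMP2, which also serves chaperone-mediated autophagy, stood at 163 CPM in the library labelled miR-105, 139.6 in that labelled MYC, 226 in GFP and 202 in vector. MCOLN1, the calcium channel of the lysosome, stood at 18.7 CPM in the library labelled miR-105, 19.0 in that labelled MYC, 25.2 in GFP and 23.9 in vector. All 3 were lower than the control mean in both lines, with median log2 folds of −0.39 (miR-105) and −0.45 (MYC). Their largest single fold was 1.62, for LAMP2 in the library labelled MYC against GFP.

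Autophagy start genes differed mainly in the library labelled miR-105. ULK1 (chr12:131894622-131923150), the kinase that opens autophagy, stood at 17.7 CPM in the library labelled miR-105, 133 in that labelled MYC, 193 in GFP and 163 in vector. That is 10.9-fold (9.01 to 13.3) and 9.19-fold (7.59 to 11.2) below GFP and vector in the library labelled miR-105, and 1.45-fold (1.36 to 1.55) and 1.23-fold (1.14 to 1.32) below GFP and vector in that labelled MYC. ATG14, which directs the lipid kinase complex to the forming membrane, stood at 15.7 CPM in the library labelled miR-105, 42.9 in that labelled MYC, 63.4 in GFP and 54.2 in vector, 4.04-fold (3.29 to 5.02) and 3.45-fold (2.78 to 4.32) below GFP and vector in the library labelled miR-105. BECN1, the scaffold of that same complex, stood at 74.8 CPM in the library labelled miR-105, 65.8 in that labelled MYC, 70.5 in GFP and 68.9 in vector, and its highest and lowest libraries differed 1.14-fold. The partners of ULK1 moved less than ULK1. ATG13 stood at 59.4 CPM in the library labelled miR-105, 90.1 in that labelled MYC, 103 in GFP and 94.8 in vector, and ATG101 at 43.9 CPM in the library labelled miR-105, 22.7 in that labelled MYC, 35.5 in GFP and 51.5 in vector. Of the 5 genes in this group, 0 were higher and 2 lower in the library labelled miR-105, and 0 were called in that labelled MYC (medians −0.73 and −0.42). Under the miR-105 label, 14.7% of all genes were higher and 16.6% lower.

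Among genes of membrane supply and lipid reading, ATG9B and WIPI1 stood out. ATG9B (chr7:151012209-151024499), a paralog of the vesicle scramblase ATG9A, stood at 0.784 CPM in the library labelled miR-105, 0.569 in that labelled MYC, 16.4 in GFP and 15.8 in vector, on 5 reads in the library labelled miR-105 and 6 in that labelled MYC. It was 20.9-fold (8.83 to 65.0) and 20.1-fold (8.43 to 62.9) below GFP and vector in the library labelled miR-105, and 28.8-fold (13.0 to 79.4) and 27.7-fold (12.4 to 76.8) below GFP and vector in that labelled MYC. Its exons share 662 bases with NOS3 on the opposite strand, which was counted with 1 read under the miR-105 label, 7 under MYC, 100 in GFP and 53 in vector. Because the strand setting is not given in the sources used here, reads of this overlap cannot be told apart. ATG9A, the broadly expressed form, stood at 94.4 CPM in the library labelled miR-105, 118 in that labelled MYC, 114 in GFP and 106 in vector.

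WIPI1, a reader of the lipid made by the BECN1 complex, stood at 10.98 CPM in the library labelled miR-105, 18.9 in that labelled MYC, 34.9 in GFP and 36.2 in vector. It was 3.18-fold (2.47 to 4.14) and 3.30-fold (2.54 to 4.33) below GFP and vector in the library labelled miR-105, and 1.85-fold (1.56 to 2.19) and 1.92-fold (1.61 to 2.30) below GFP and vector in that labelled MYC. WIPI1 overlaps ARSG on the other strand, which had at most 17 reads in any library. The lipid transfer proteins ATG2A and ATG2B stood at 37.8 CPM in the library labelled miR-105, 56.9 in that labelled MYC, 72.5 in GFP and 66.6 in vector, and at 42.3 CPM in the library labelled miR-105, 99.3 in that labelled MYC, 104.6 in GFP and 57.3 in vector. GFP and vector differed 1.83-fold in ATG2B, the widest gap between the controls for any of these genes past 100 reads in all libraries. ATG2B was at least 2-fold from both controls in neither line, and under the miR-105 label it passed 2-fold against GFP only (2.47-fold lower).

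Enzymes that attach ATG8 proteins to lipid went both ways. ATG16L1 (chr2:233251673-233295669), the scaffold that places the conjugation machinery on membranes, stood at 85.9 CPM in the library labelled miR-105, 30.6 in that labelled MYC, 41.0 in GFP and 41.8 in vector. It was 2.09-fold (1.86 to 2.36) and 2.05-fold (1.80 to 2.35) above GFP and vector in the library labelled miR-105, just past the threshold, and the call was lost when library totals alone set the scale (log2 fold 0.94) and with DESeq2 size factors (1.02, one control under 2-fold). ATG4C, a protease that processes ATG8 proteins, stood at 18.2 CPM in the library labelled miR-105, 9.95 in that labelled MYC, 6.28 in GFP and 6.70 in vector, 2.89-fold (2.17 to 3.87) and 2.71-fold (1.98 to 3.76) above GFP and vector there. ATG3, the enzyme that hands ATG8 proteins to the lipid, stood at 68.4 CPM in the library labelled miR-105, 43.5 in that labelled MYC, 27.7 in GFP and 33.9 in vector. Its ratios of 2.47-fold (2.14 to 2.84) and 2.01-fold (1.74 to 2.34) fell just short against vector once 0.5 CPM was added.

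ATG16L2, a paralog of ATG16L1, went the other way and stood at 3.76 CPM in the library labelled miR-105, 13.0 in that labelled MYC, 8.52 in GFP and 9.84 in vector. It was 2.26-fold (1.45 to 3.67) and 2.61-fold (1.65 to 4.29) below GFP and vector in the library labelled miR-105, a call lost with a pseudocount of 1 CPM (log2 fold −1.09). It shares 680 exon bases with FCHSD2 on the opposite strand, which had 110 reads in the library labelled miR-105, 514 in that labelled MYC, 255 in GFP and 158 in vector. ATG4D, another ATG8 protease, stood at 18.5 CPM in the library labelled miR-105, 58.4 in that labelled MYC, 27.8 in GFP and 32.3 in vector. It was 2.10-fold (1.85 to 2.39) and 1.81-fold (1.57 to 2.08) above GFP and vector in the library labelled MYC, which passed 2-fold against GFP only. ATG7, the activating enzyme of the pathway, stood at 53.8 CPM in the library labelled miR-105, 55.7 in that labelled MYC, 65.1 in GFP and 73.3 in vector, and ATG4B at 47.4 CPM in the library labelled miR-105, 46.0 in that labelled MYC, 54.3 in GFP and 57.2 in vector. Of the 9 genes, 2 were higher and 1 lower in the library labelled miR-105, and 0 were called in that labelled MYC. Under the miR-105 label, 14.7% of all genes were higher and 16.6% lower.

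Of the 6 compared genes for the ATG8 proteins themselves, 0 were higher and 2 lower in the library labelled miR-105, and 1 was higher and 1 lower in that labelled MYC. Among all genes, 14.7% were higher and 16.6% lower under the miR-105 label, and 9.03% and 10.4% under the MYC label. GABARAPL1 (chr12:10212877-10223128), which serves late autophagosome steps, stood at 9.88 CPM in the library labelled miR-105, 56.4 in that labelled MYC, 179 in GFP and 167 in vector. It was 18.1-fold (14.1 to 23.6) and 16.9-fold (13.1 to 22.1) below GFP and vector in the library labelled miR-105, and 3.17-fold (2.90 to 3.47) and 2.96-fold (2.69 to 3.26) below GFP and vector in that labelled MYC. GABARAP, the founding member of that family, stood at 88.6 CPM in the library labelled miR-105, 175 in that labelled MYC, 211 in GFP and 301 in vector, 2.38-fold (2.18 to 2.61) and 3.39-fold (3.10 to 3.72) below GFP and vector in the library labelled miR-105. GABARAPL2 stood at 45.01 CPM in the library labelled miR-105, 51.4 in that labelled MYC, 61.7 in GFP and 74.1 in vector and passed 2-fold against neither control. Per kilobase of exon, GABARAPL1 made up 4.38% of the 3 genes in the library labelled miR-105, 14.1% in that labelled MYC, 30.2% in GFP and 23.0% in vector.

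In the LC3 branch, MAP1LC3B, the form most used as an autophagosome marker, stood at 81.7 CPM in the library labelled miR-105, 101.3 in that labelled MYC, 146 in GFP and 143 in vector. MAP1LC3B2, a near-identical copy, stood at 30.6 CPM in the library labelled miR-105, 36.9 in that labelled MYC, 49.8 in GFP and 36.9 in vector, and because reads of the copies can be swapped both values are uncertain. MAP1LC3A was counted with 1 read in the library labelled miR-105, 88 reads in that labelled MYC, 4 in GFP and 6 in vector. At 8.34 CPM it was 28.9-fold (10.9 to 108) and 12.9-fold (5.68 to 36.0) above GFP and vector in the library labelled MYC. Summed over the 7 ATG8 genes, the level was 256 CPM in the library labelled miR-105, 429 CPM in that labelled MYC, 648 CPM in GFP and 722 CPM in vector.

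SQSTM1 and TFEB went in opposite directions in the 2 lines. SQSTM1 (chr5:179806393-179838078), the cargo receptor that is itself degraded by autophagy at the protein level, stood at 265 CPM in the library labelled miR-105, 1113 in that labelled MYC, 499 in GFP and 578 in vector. It was 1.88-fold (1.78 to 1.98) and 2.18-fold (2.06 to 2.30) below GFP and vector in the library labelled miR-105, and 2.23-fold (2.17 to 2.30) and 1.92-fold (1.86 to 1.99) above GFP and vector in that labelled MYC, each past 2-fold against 1 control only. The direct ratio between the lines was 4.19-fold (3.99 to 4.42), with miR-105 the lower. With library totals alone as the scale, SQSTM1 became a call in the library labelled MYC (log2 fold 1.16). It shares 1384 exon bases with MRNIP on the opposite strand, which had 87 reads in the library labelled miR-105, 729 in that labelled MYC, 541 in GFP and 516 in vector. TFEB (chr6:41683978-41736223), the factor named above, stood at 6.59 CPM in the library labelled miR-105, 37.6 in that labelled MYC, 20.6 in GFP and 25.8 in vector. It was 3.13-fold (2.25 to 4.43) and 3.92-fold (2.82 to 5.58) below GFP and vector in the library labelled miR-105, and 1.83-fold (1.57 to 2.14) and 1.46-fold (1.24 to 1.72) above GFP and vector in that labelled MYC, which is short of the threshold.

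Set directly against each other, 8 of 60 members were at least 2-fold higher in the library labelled miR-105 than in that labelled MYC (19% of all genes were) and 16 were lower (19.8% of all genes were). The 8 higher members were CTSV (377-fold (161 to 1163)), ATP6V0A4, ATG16L1, CTSL (2.33-fold), ATP6V0A2 (2.28-fold), ATP6V0D1 (2.27-fold), CTSZ (2.13-fold) and ATP6V0C (2.06-fold). Of the 19 compared pump genes, 4 were at least 2-fold higher and 2 lower, and 15 were higher in the library labelled miR-105 at any size (6500 of all 12484 genes were), with a median log2 difference of 0.64 against 0.05 for all genes. With library totals alone as the scale this became 13 of 19, and ATP6V1E2 and ATP6V0E1 changed direction. The 8 members at least 2-fold higher became 4 on that scale, where over all genes 2371 became 1837.

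The 16 lower members were ATP6V1B1 (21.5-fold), ATP6V1G2, MAP1LC3A, CTSF (8.76-fold), CTSK (7.12-fold), CTSS, CTSO, CTSD (2.47-fold), ULK1 (7.48-fold), ATG14, ATG2B, ATG4D, ATG16L2, GABARAPL1 (5.71-fold), SQSTM1 and TFEB (5.71-fold). By role, 7 of 25 autophagy machinery genes, 5 of 11 cathepsins and 2 of 19 pump genes were lower, beside SQSTM1 and TFEB, and 1 of 25, 3 of 11 and 4 of 19 were higher. All 6 compared ATG8 genes were lower in the library labelled miR-105 than in that labelled MYC at any size (5971 of all 12484 genes were), under each scaling tried.

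The 7 members under a mean of 1 CPM were close to silent in these cells. ATP6V1G3, a kidney stalk isoform, and MAP1LC3C were at 0 reads in every one of the 4 libraries, a count that allows at most 0.471 CPM in the library labelled miR-105 and 0.217 CPM in GFP (3 reads). ATP6V0D2, known from osteoclasts, had 1 read in each library. CTSE, CTSG, CTSW and LAMP3, each known from immune or gut cells, had at most 4 reads in any library. Between the controls, the members past 100 reads in every library that differed more than 1.5-fold were ATG2B (GFP above vector) and ATP6V1F (1.53-fold, GFP below vector).

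Lists of neighbouring pathway genes give the wider setting. Of 10 other V-ATPase subunits and assembly factors, 0 were called in the library labelled miR-105 and TCIRG1 alone, lower, in that labelled MYC. Of 34 other lysosomal hydrolases and activators, 4 were higher and 10 lower in the library labelled miR-105 (median log2 fold −0.51), and 2 were higher and 5 lower in that labelled MYC (median −0.19). Among all genes, 14.7% were higher and 16.6% lower under the miR-105 label, and 9.03% and 10.4% under the MYC label. IDUA, which cuts heparan and dermatan sulfate, stood at 1.255 CPM in the library labelled miR-105, 16.5 in that labelled MYC, 16.2 in GFP and 19.8 in vector. SGSH, another heparan sulfate enzyme, stood at 4.55 CPM in the library labelled miR-105, 58.0 in that labelled MYC, 19.3 in GFP and 30.8 in vector. These sulfate enzymes were low in the library labelled miR-105 and near or above the controls in that labelled MYC. ARSB, a sulfatase, was in contrast higher in the library labelled miR-105 and stood at 31.8 CPM in the library labelled miR-105, 5.40 in that labelled MYC, 6.57 in GFP and 2.59 in vector, and GLA, the galactosidase lost in Fabry disease, stood at 34.0 CPM in the library labelled miR-105, 14.1 in that labelled MYC, 7.51 in GFP and 8.11 in vector. ASAH1, the acid ceramidase, was low in both lines at 132 CPM in the library labelled miR-105, 99.9 in that labelled MYC, 399.8 in GFP and 366 in vector. GALC, another sphingolipid enzyme, had 0 reads in the library labelled MYC, at least 40.9-fold lower than GFP and at least 42.2-fold lower than vector (floor of 3 reads).

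Lysosomal membrane transporters had 0 higher and 4 lower of 15 in the library labelled miR-105, and 0 called in that labelled MYC. Under the miR-105 label, 14.7% of all genes were higher and 16.6% lower. TPCN1, a sodium and calcium channel, stood at 65.7 CPM in the library labelled miR-105, 258 in that labelled MYC, 239 in GFP and 229.5 in vector. SLC17A5, the sialic acid exporter, was 3.60-fold and 3.19-fold lower in the library labelled miR-105, CLN3 2.30-fold and 2.91-fold, and TMEM175, an ion channel, 2.19-fold and 2.66-fold. None of 10 sorting genes was called in either line. Of 5 compared cathepsin inhibitors, 0 were called in the library labelled miR-105. In that labelled MYC, CSTB (stefin B) was 2.95-fold (2.76 to 3.15) and 2.12-fold (1.98 to 2.27) above GFP and vector, and CST6 (cystatin M), an inhibitor of CTSL and CTSV, stood at 10.2 CPM in the library labelled miR-105, 0.474 in that labelled MYC, 43.6 in GFP and 17.9 in vector. CST6 was 92.0-fold (39.2 to 284) and 37.9-fold (15.9 to 118) below GFP and vector there, on 5 reads, in the library where CTSV was also lowest.

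**Figure D4:**
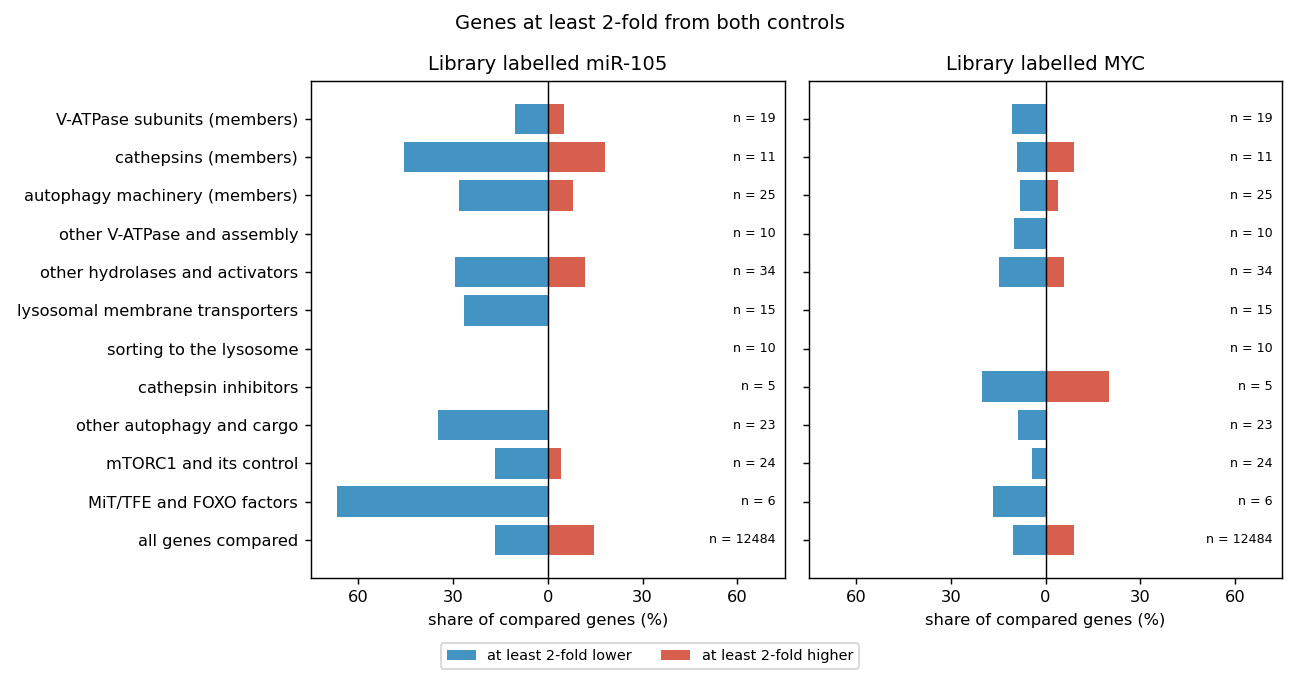
Share of compared genes (%) at least 2-fold lower (left of 0) or higher (right of 0) than both controls, for 3 groups of members, 8 neighbouring lists and all 12484 genes, in the libraries labelled miR-105 and MYC. In the library labelled miR-105, where 16.6% of all genes were lower, lower bars stand for 5 of 11 cathepsins, 7 of 25 autophagy machinery genes, 10 of 34 other hydrolases, 4 of 15 membrane transporters and 8 of 23 other autophagy genes. They also stand for 4 of 6 genes on the MiT/TFE and FOXO list (1 of these being ZKSCAN3, of neither family), 4 of 24 mTORC1 genes and 2 of 19 pump genes.

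Other autophagy and cargo genes had 0 higher and 8 lower of 23 in the library labelled miR-105 (median log2 fold −0.69), and 0 higher and 2 lower in that labelled MYC. Among all genes, 14.7% were higher and 16.6% lower under the miR-105 label, and 9.03% and 10.4% under the MYC label. FAM134B, a receptor for the endoplasmic reticulum, stood at 1.41 CPM in the library labelled miR-105, 23.0 in that labelled MYC, 13.7 in GFP and 11.8 in vector. ZFYVE1, a lipid-binding mark of forming autophagosomes, was 4.98-fold and 4.77-fold lower in the library labelled miR-105, and OPTN, a receptor for mitochondria and bacteria, 4.02-fold and 4.96-fold. PLEKHM1, which tethers autophagosomes to lysosomes, stood at 43.4 CPM in the library labelled miR-105, 63.6 in that labelled MYC, 182 in GFP and 149.5 in vector, and BNIP3L, a mitochondrial receptor, at 51.6 CPM in the library labelled miR-105, 68.4 in that labelled MYC, 157 in GFP and 148 in vector. Both were called lower in both lines.

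The mTORC1 list had 1 higher and 4 lower of 24 in the library labelled miR-105, near the share of all genes for the lower ones, and 0 higher and 1 lower in that labelled MYC. The higher one was FNIP2, a partner of folliculin, 2.83-fold and 3.42-fold. SESN3, RRAGB and RRAGD, all amino acid or stress inputs to mTORC1, were 3 of the 4 lower. SESN3 was 6.91-fold (3.24 to 17.6) and 3.25-fold (1.41 to 8.70) below GFP and vector in the library labelled miR-105, on 7 reads, RRAGB 4.08-fold (2.62 to 6.67) and 3.48-fold (2.19 to 5.77), and RRAGD 3.02-fold (1.49 to 6.93) and 2.99-fold (1.42 to 7.01). RHEB, the direct activator, stood at 234 CPM in the library labelled miR-105, 57.8 in that labelled MYC, 134 in GFP and 146 in vector, and was the gene lower in the library labelled MYC. The list of MiT/TFE and FOXO factors besides TFEB also holds ZKSCAN3, which belongs to neither family. Of its 6 compared genes, 0 were higher and 4 lower in the library labelled miR-105, ZKSCAN3 among them (all genes: 14.7% and 16.6%). FOXO4, a forkhead factor held in the cytosol by insulin signalling, stood at 2.35 CPM in the library labelled miR-105, 29.1 in that labelled MYC, 41.6 in GFP and 35.4 in vector. Its relative FOXO1 stood at 90.2 CPM in the library labelled miR-105, 173 in that labelled MYC, 318 in GFP and 234 in vector. ZKSCAN3, a repressor of autophagy genes, was 3.29-fold and 2.73-fold lower. MITF, the relative of TFEB, stood at 19.0 CPM in the library labelled miR-105, 8.25 in that labelled MYC, 57.1 in GFP and 50.4 in vector and was called lower in both lines.

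Markers of mammary epithelium and of other cell types also moved in this cell line, and their part in the values above was not tested. Of 9 epithelial and basal markers, 3 were higher and 2 lower in the library labelled miR-105 (ITGA6 at 918 CPM, against 170.0 in GFP and 104.9 in vector; KRT17 at 766 CPM, against 5131 and 6927), with KRT5 higher and KRT14 lower. In that labelled MYC, 2 were higher and 2 lower, among them TP63 (5.37-fold and 10.8-fold higher) and CDH1 (4.201-fold and 3.002-fold lower). For the marker counts in both lines, the shares of all genes were 14.7% higher and 16.6% lower under the miR-105 label, and 9.03% and 10.4% under the MYC label. Fibroblast markers summed to between 118 CPM (miR-105) and 216 CPM (vector), with COL3A1 at 0 reads in all libraries and 3 of 8 compared. Of these, DCN was lower in the library labelled miR-105 (4.34-fold and 7.30-fold) and FAP in that labelled MYC (49.3-fold and 33.2-fold). Endothelial markers summed to 3.61 CPM in the library labelled miR-105, 92.1 CPM in that labelled MYC, 49.6 CPM in GFP and 46.6 CPM in vector. KDR made most of this sum outside the library labelled miR-105, and PECAM1 stood at 1.73 CPM in the library labelled miR-105, 2.46 in that labelled MYC, 15.9 in GFP and 12.8 in vector.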

How the data were processed

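RNA-seq of 4 libraries, 1 per construct, was used as the authors deposited it. Mapping with TopHat2 to hg19 and use of edgeR are named, per the submitters' processing notes, with no version. Which read counter, annotation and strand setting were used is not given in the sources used here. Exons of GABARAP (691 bases), CTSD (1166), ATP6V0C (862) and ATG9A (1833) overlap other annotated genes on the same strand, which have no line. ATG7 shares 1596 exon bases with VGLL4 on the opposite strand. Deposited values are a depth-adjusted signal per gene, and not the raw counts the design had assumed. Their form is that of edgeR pseudo-counts, and they were inverted at a common dispersion of 0.0553, which gave whole reads for 100% of the 18859 values in each library (tolerance 1e-05). The inversion and the count tests were tested on simulated data. After 19 repeated lines were dropped, 18840 genes remained.

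CPM was computed from recovered reads and TMM factors (edgeR 4.0.16, R 4.3.3). The 12484 genes averaging at least 1 CPM were compared on log2(CPM + 0.5), and called at 2-fold from both controls. Intervals are exact conditional binomial (ratios) and exact Poisson (levels), at 95%. Alternatives were edgeR's quasi-likelihood test and DESeq2 1.42.0 with vector and GFP as 1 control group (1 residual degree of freedom, comparing libraries, not conditions), other scalings, filters, pseudocounts, thresholds and single controls. Gene coordinates come from RefSeq, and exon lengths and exon overlaps from GENCODE 29 (both GRCh38), matched by symbol, while the reads were mapped to hg19.

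Named genes were all called members, all GABARAP and MAP1LC3 genes, the 9 genes listed by name, up to 4 further members per role by mean CPM, and up to 4 called genes per neighbouring list and line. Some genes this rule names are not reported here. EPCAM, KRT18, PTPRC and the genes overlapping members were named outside this rule, after their values were seen. Members and lists were chosen with earlier results of these data known, and the 3′ UTR matches were added after the data had been seen.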

Additional observations from a re-analysis of the deposited data

How the results depend on the processing

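No called member reversed under any alternative, and no median of a group or list past 1.5-fold did. Of the values answering a comparison, 366 kept to within 1.5 times (counts) or 0.307 on the log2 scale (medians, the median distance between GFP and vector), and 16 moved. With DESeq2 (vector and GFP as 1 control group), 3 members were higher in the library labelled miR-105, not 5. Its other counts and those of edgeR stayed within 1.5 times, although the members called differed in part from those of the 2-fold rule. In the library labelled MYC, the 2 higher members became 1 with a minimum of 5 CPM, 5 at 1.5-fold and 4 against GFP alone, and the 5 lower became 15 at 1.5-fold and 9 against vector alone. At 1.5-fold, GFP against vector had 1 higher and 1 lower. Between miR-105 and MYC, the 8 higher became 4 with library totals alone (over all genes, 2371 became 1837) and 18 at 1.5-fold. The shares of all genes at 1.5-fold, against 1 control alone or with a minimum of 5 CPM are not given here. Member counts under those settings therefore cannot be set against a background. With no filter, the cathepsin median (miR-105) was −0.50, cathepsin inhibitors (miR-105) −0.14, fibroblast markers (MYC) −0.0395, and blood markers −0.20 (miR-105) and −0.28 (MYC). Blood markers (miR-105) were −1.34 with a minimum of 5 CPM. Library totals alone moved the median of all genes to −0.09 (miR-105), 0.14 (MYC) and −0.15 (miR-105 against MYC). No paired analysis was possible because each construct had 1 library and the labels give no replicate numbers. Values resting on few reads (ATP6V1G2, ATP6V0A4, MAP1LC3A, ATG9B, and CTSV in the library labelled MYC) are limited by depth.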
